A study of Mus musculus with 6 samples.

Results

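The BCL2 family genes that set the survival and death of double-positive thymocytes were followed through loss of KANSL1. The set held 10 genes picked by name, each with 1 row in the deposited count table of 29626 genes. They were the survival genes Bcl2, Bcl2l1 and Mcl1, the BH3-only genes Bcl2l11, Bbc3, Pmaip1, Bmf and Bid, and the effector genes Bax and Bak1. All 10 were abundant enough to be tested. Double-positive thymocytes were sorted by flow cytometry from mice of 8 weeks. The KANSL1-deficient group was 3 mice with floxed Kansl1 alleles and a CD4-Cre transgene, and the control group was 3 littermates with the floxed alleles and no Cre. Only the KANSL1-deficient mice carried Cre, and what Cre itself does to these genes cannot be told apart from what the missing KANSL1 does.

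The proteins of this family decide whether the outer membrane of the mitochondrion is opened. Survival proteins hold the effectors BAX and BAK in check, BH3-only proteins are made or released under stress and bind the survival proteins or the effectors, and free effectors form pores that release cytochrome c. Double-positive thymocytes are short-lived and die unless their T cell receptor is engaged; they are known to depend on BCL-xL and MCL1, and BIM is a main killer of thymocytes in negative selection. KANSL1 belongs to the NSL complex, together with the histone acetyltransferase KAT8.

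Levels are CPM, counts scaled to library size, on the TMM scale, or FPKM where genes are compared with each other. The tests are those of edgeR across 15353 genes with a Benjamini-Hochberg adjusted p under 0.05 as the threshold. Library totals lay between 19361968 and 22459830 counts, and Kansl1 itself, counted over the whole gene so that a deleted exon is not seen apart, had 146, 168 and 188 CPM in KANSL1-deficient libraries and 214, 189 and 230 CPM in control libraries. The difference of -0.33 (log2) missed the threshold (edgeR adjusted p = 0.171). In bulk RNA, fewer cells of a type and less RNA per cell cannot be told apart. The 10 listed markers of double-positive cells summed to between 16746 and 18550 CPM in KANSL1-deficient libraries and between 14079 and 14675 CPM in control libraries. Of these 10, 3 were called higher, where 3.85% of all tested genes were, and 0 lower, where 2.91% were. The 10 listed genes of dividing cells summed to between 787 and 906 CPM against between 225 and 343 CPM. All 10 were called higher in the KANSL1-deficient libraries, where 3.85% of all tested genes were, but these 10 were chosen after their values were seen. The markers of mature single-positive cells summed to between 421.8 and 585.5 CPM in KANSL1-deficient libraries and between 267.2 and 324.8 CPM in control libraries. Of 5 tested markers on that list, 1 rose (3.85% of all tested genes did), and the median log2 fold change was 0.51. An unadjusted edgeR p under 0.05 was found for 3 of the 5, and for 11.7% of all genes with a higher and 11.0% with a lower value. Zbtb7b, Foxp3 and Nkg7 of that list had at most 2 counts in any library. The B cell list summed to between 493 and 561 CPM against between 291 and 406 CPM, nearly all of it Ighm and Cd79b, while Ms4a1 and Pax5 were at 0 in at least 2 of 3 libraries of each group. Of 3 tested B cell markers, 1 rose, where 3.85% of all tested genes did. Lists for macrophages and dendritic cells, stroma and erythroid cells each summed to at most 16.2 CPM in KANSL1-deficient libraries and 16.5 CPM in control libraries, and 0 of their tested genes passed. Double-negative markers summed to between 94.7 and 120.7 CPM against between 77.9 and 88.7 CPM. Markers of gamma-delta T, NK and NKT cells summed to between 25.8 and 30.9 CPM against between 20.5 and 25.6 CPM. Both sums were higher in every KANSL1-deficient library, and 0 of the tested genes on these lists passed. The part of these shifts in the results below was not tested.

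Bcl2l1 was the most abundant member. By mean FPKM, which allows comparison between genes because it is per length, the order in both groups began with Bcl2l1, Bcl2l11, Mcl1 and Bax. Bcl2l1 had 239, 264 and 218 FPKM in KANSL1-deficient libraries and 205, 170.0 and 215 FPKM in control libraries. Bcl2l11 had 128, 115 and 104 FPKM against 141, 110.5 and 110.4 FPKM. No values of neighbours overlapped among the first 4 in either group. Bmf stood at rank 7 in KANSL1-deficient cells, with 13.8 to 19.2 FPKM, and at rank 5 in control cells, with 23.4 to 30.5 FPKM. Within the KANSL1-deficient group, Pmaip1 overlapped with Bid, Bid with Bmf, Bmf with Bbc3 and Bcl2 with Bak1. In control cells, Pmaip1 overlapped with Bid, and Bak1 with Bcl2. Bcl2 and Bak1 were the lowest members in both groups: Bcl2 lay between 2.95 and 4.58 FPKM against between 2.91 and 4.56 FPKM, and Bak1 between 1.89 and 3.02 FPKM against between 2.89 and 5.10 FPKM. Among all tested genes, the mean FPKM of Bcl2l1 was at percentile 99.0, that of Bcl2l11 at 97.7, that of Mcl1 at 96.6, that of Bcl2 at 48.2 and that of Bak1 at 45.1.

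**Figure D1:**
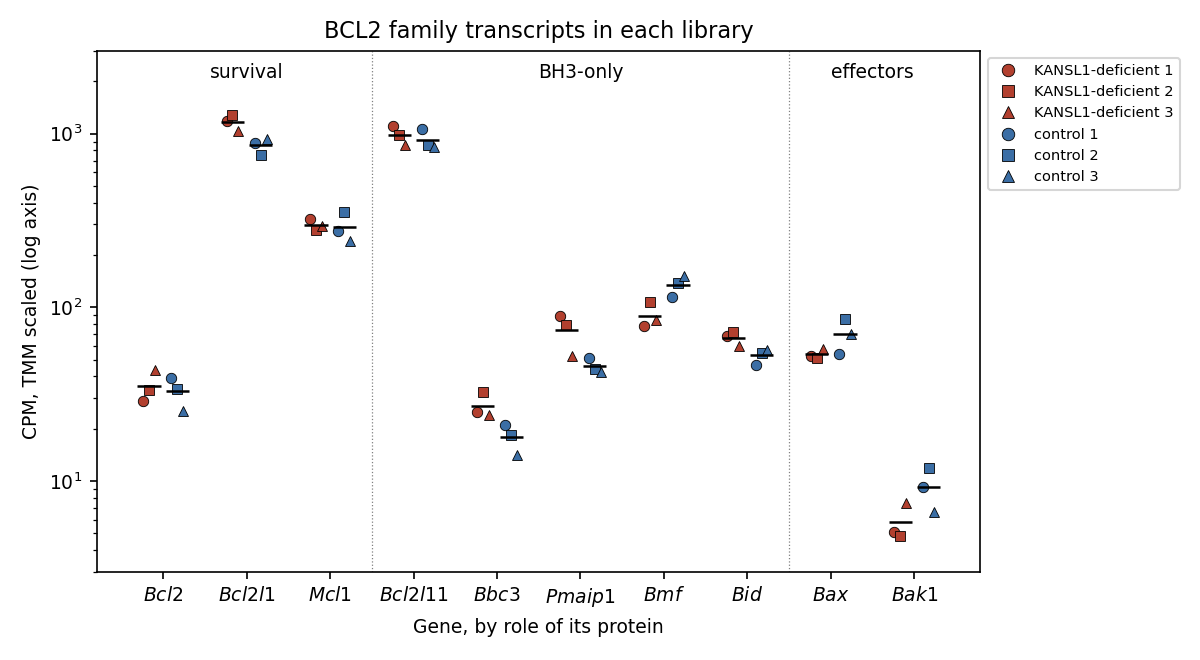
Each point is the level of 1 gene in 1 library, in CPM on a log axis, with KANSL1-deficient libraries in red, control libraries in blue and a black line at each group's mean (n = 3 each). Bmf is lower in all KANSL1-deficient libraries (78.0 to 107 CPM) than in any control library (115 to 152 CPM), whereas the points of Bcl2, Mcl1 and Bcl2l11 overlap.

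One member passed the threshold, Bmf, which fell. It was 1 of 10 members called lower, where 2.91% of all tested genes were, and 0 of 10 were called higher, where 3.85% were; 6.76% of all genes passed in either direction. Without adjustment, 4 members (Bcl2l1, Pmaip1, Bbc3 and Bid) had p under 0.05 with a higher value, as did 11.7% of all genes, and Bmf alone had one with a lower value, as did 11.0%. The groups did not overlap for 5 of 10 members, against 28.5% of all genes. The median log2 fold change of the 10 members was 0.10, beside -0.02 over all tested genes. DESeq2 called Bcl2l1 and Pmaip1 higher (8.60% of the genes it adjusted) and Bmf lower (7.50%). Limma-voom called Bcl2l1 higher (4.65% of genes) and Bmf lower (3.26%). In the authors' deposited table, the same 3 members had an adjusted p under 0.05, as did 14.9% of the genes with a value there: Bmf at 0.00792, Pmaip1 at 0.0101 and Bcl2l1 at 0.0163. The authors' own mark of significance in that table was no for all 10. On counts simulated from these libraries for 15353 genes, the test recovered 17 of 67 genes changed 1.5-fold and 41 of 67 changed 2-fold. In the simulation 15153 genes were unchanged, and the changed genes were drawn from all with a mean of at least 5 CPM. In these data 1038 genes passed, so the adjusted threshold was stricter in the simulation. Its shares are a rough guide only and do not give the recovery for these members.

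**Figure D2:**
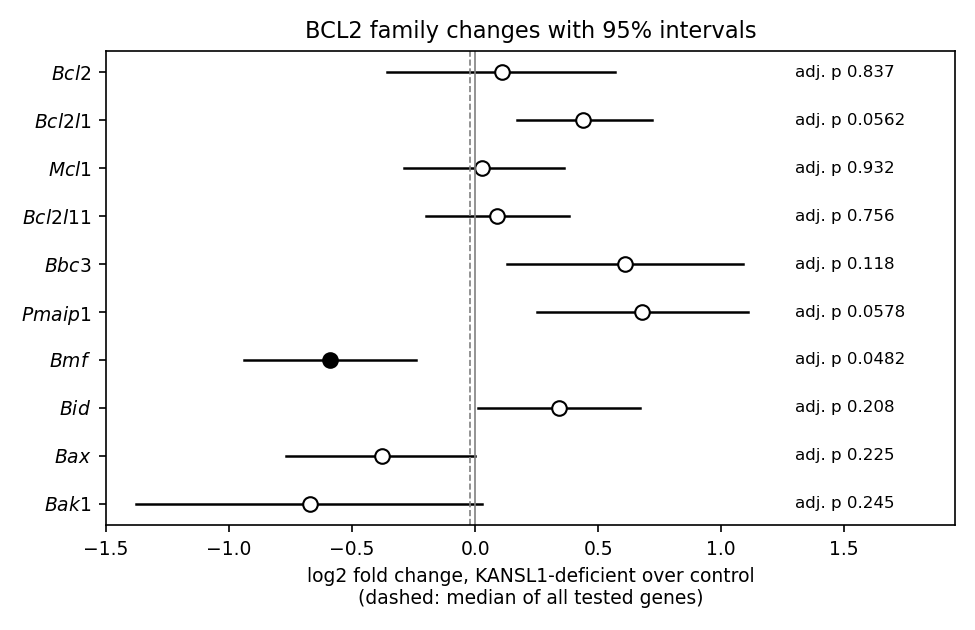
Points are log2 fold changes of KANSL1-deficient over control cells with 95% intervals from the edgeR fit (n = 3 each); the filled point passed the threshold and the dashed line is the median of all tested genes, -0.02. The intervals of Bcl2l1, Bbc3, Pmaip1, Bmf and Bid leave out 0, while the adjusted p is under 0.05 for Bmf alone.

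Among the survival genes, Bcl2l1 had the only difference beyond the spread of the libraries, and it missed the threshold. Bcl2l1, which encodes BCL-xL (ENSMUSG00000007659, GRCm39 chromosome 2, 152622588 to 152673648), had 1179, 1280.2 and 1031.5 CPM in KANSL1-deficient libraries and 882, 754 and 934 CPM in control libraries. All KANSL1-deficient libraries were above all control libraries. The log2 fold change was 0.44 ± 0.13 (SE), or 1.36-fold with a 95% interval of 1.12 to 1.64 (edgeR adjusted p = 0.0562; exact two-sided permutation p = 0.1, the smallest that 3 against 3 libraries allow). With library totals in place of TMM it was 0.29, and after cyclic loess between libraries 0.11, so the size depended on the scaling. Library totals moved the log2 fold changes of all genes by -0.15, and the directions given here are relative to the TMM scale.

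Bcl2 and Mcl1 had intervals around no change. Mcl1, whose short-lived protein restrains BAK and BIM, had 322, 278 and 295 CPM in KANSL1-deficient libraries and 276, 356 and 241 CPM in control libraries. Its values overlapped fully, and the log2 fold change was 0.03, with a 95% interval of -0.29 to 0.36 (edgeR adjusted p = 0.932). Bcl2, the founding member and a survival gene of mature T cells, had 29.0, 33.5 and 43.3 CPM against 39.1, 33.8 and 25.3 CPM. The log2 fold change of Bcl2 was 0.11, between -0.36 and 0.57, which spans 0 (edgeR adjusted p = 0.837). Both signs turned with library totals, to -0.04 for Bcl2 and -0.11 for Mcl1.

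The fall of Bmf was the clearest change in the BH3-only group. Bmf encodes a BH3-only protein that binds dynein light chain and is released to bind survival proteins when cells lose attachment or are stressed. The gene (ENSMUSG00000040093, GRCm39 chromosome 2, 118359238 to 118380168) had 78.0, 107 and 84.4 CPM in KANSL1-deficient libraries and 115, 137 and 152 CPM in control libraries. No KANSL1-deficient library reached the lowest control library. KANSL1-deficient cells averaged 89.7 ± 15.1 CPM and control cells 134.9 ± 18.6 CPM (SD, n = 3 each). On the log2 scale Bmf fell by 0.59 ± 0.16 (SE), or to 0.67-fold with a 95% interval of 0.52 to 0.85 (edgeR adjusted p = 0.0482; exact two-sided permutation p = 0.1, the smallest possible). It stayed past the threshold with library totals (-0.74), cyclic loess (-0.68), DESeq2 and limma-voom. Bmf kept its direction without any 1 library, but passed only without control replicate 1 (adjusted p = 0.035); without another library the log2 fold change lay between -0.49 and -0.73 and the adjusted p between 0.063 and 0.186.

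The sequence before 2 of the 3 start sites of Bmf is shown because E proteins, which are main regulators of the double-positive stage, bind the E-box CAGCTG. Sequences are from RefSeq on GRCm38.p6, on the coding (minus) strand, and end 1 base before the start site. Capitals mark the general E-box CANNTG, of which the E protein site is a special case. All motifs were searched on both strands.
Bmf, first start site, chr2:118549687-118549936: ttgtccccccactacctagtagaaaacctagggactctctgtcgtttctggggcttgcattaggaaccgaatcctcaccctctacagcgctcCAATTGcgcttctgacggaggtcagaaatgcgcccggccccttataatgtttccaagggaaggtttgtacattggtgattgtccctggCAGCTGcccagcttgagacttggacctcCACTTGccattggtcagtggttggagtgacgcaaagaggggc
Bmf, second start site, chr2:118547600-118547849: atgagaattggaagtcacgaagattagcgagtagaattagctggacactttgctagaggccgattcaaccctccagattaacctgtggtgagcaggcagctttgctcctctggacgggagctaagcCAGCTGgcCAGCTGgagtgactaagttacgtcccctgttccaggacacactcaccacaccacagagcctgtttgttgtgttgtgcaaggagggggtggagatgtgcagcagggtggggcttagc
Bcl2l1, first start site, chr2:152831729-152831978: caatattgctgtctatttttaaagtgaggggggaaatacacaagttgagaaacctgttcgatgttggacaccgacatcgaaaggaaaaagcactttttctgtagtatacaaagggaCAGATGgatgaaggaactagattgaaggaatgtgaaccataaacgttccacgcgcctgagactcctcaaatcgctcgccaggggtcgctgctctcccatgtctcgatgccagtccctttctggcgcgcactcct
The third start site of Bmf also had CAGCTG before it. Pmaip1 was left out of this search. Of the 9 members searched, with 16 start sites, Bmf alone had CAGCTG within 250 bases before a start site. That E-box was before 3 of the 16 start sites, and 13.0% of all 32851 promoters of that length held it. CANNTG was before 10 of the 16 start sites, against 66.2% of all promoters. GTAAACA, a FOXO site, was found for Bcl2l11 and Bbc3 (2 of 16 start sites, 3.17% of all promoters). CCGGAA, an ETS core, was found for Mcl1, Bcl2l11 and Bid (3 of 16, 12.0%). CACGTG, the MYC E-box, was found for Bbc3 and Bax (2 of 16, 6.02%) and the p53 half-site for Bmf and Bax (2 of 16, 7.13%). The percentages are per promoter, and a member with up to 3 start sites has more windows in which to match. These matches describe letters and not binding.

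Of the 9739 genes with a mean of at least 5 CPM, those whose pattern over the 6 libraries was most like that of Bmf were Psph, Pex16 and Fars2. The root mean square difference from Bmf in centred log2 CPM was 0.03, 0.05 and 0.05. Psph, a phosphatase of serine synthesis, had 19.7, 25.6 and 19.8 CPM in KANSL1-deficient libraries and 28.4, 33.8 and 36.7 CPM in control libraries. As with Bmf, replicate 2 was the highest KANSL1-deficient library and replicate 1 the lowest control library.

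Pmaip1 and Bbc3, which encode the p53-inducible proteins NOXA and PUMA, had the largest positive values of the set, and neither passed. Pmaip1 (ENSMUSG00000024521) had 89.7, 79.1 and 52.6 CPM in KANSL1-deficient libraries and 51.4, 44.4 and 42.5 CPM in control libraries. KANSL1-deficient replicates 1 and 2 were well above the controls, and replicate 3 was close to control replicate 1. The log2 fold change was 0.68 ± 0.20 (SE), or 1.60-fold with a 95% interval of 1.19 to 2.15 (edgeR adjusted p = 0.0578), and without KANSL1-deficient replicate 3 it was 0.88 and passed (adjusted p = 0.0286). NOXA binds MCL1, and the ratio of Pmaip1 to Mcl1 in FPKM was 0.349, 0.356 and 0.223 in KANSL1-deficient libraries and 0.233, 0.156 and 0.221 in control libraries, which overlapped.

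Bbc3 (ENSMUSG00000002083) had 24.9, 32.7 and 24.1 CPM in KANSL1-deficient libraries and 21.1, 18.4 and 14.1 CPM in control libraries. All KANSL1-deficient libraries were above the controls, by a small margin over control replicate 1. The log2 fold change was 0.61 ± 0.22 (SE), or 1.53-fold with a 95% interval of 1.09 to 2.13 (edgeR adjusted p = 0.118), and it was between 0.42 and 0.73 under the alternatives. Trp53, which encodes p53 and was chosen after its values were seen, had 170.0, 187 and 178 CPM against 132, 126 and 142 CPM. The log2 difference of 0.42 missed the threshold (edgeR adjusted p = 0.0585), and the part of p53 in the values of Pmaip1 and Bbc3 was not tested.

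Bcl2l11 and Bid were the remaining BH3-only genes. Bcl2l11, which encodes BIM, had 1103, 976 and 862 CPM in KANSL1-deficient libraries and 1058, 858 and 841 CPM in control libraries. The groups overlapped, and the log2 fold change was 0.09 with a 95% interval of -0.20 to 0.38 (edgeR adjusted p = 0.756); it was -0.06 with library totals and -0.23 after cyclic loess. Bid, whose product is cut by caspase-8 and so links death receptors to mitochondria, had 68.4, 72.2 and 60.1 CPM against 46.8, 54.8 and 56.9 CPM. The groups did not overlap, and the log2 fold change was 0.34, between 0.01 and 0.67 (edgeR adjusted p = 0.208). Bid overlaps Bcl2l13 on the other strand by 913 bases in the deposited coordinates; Bcl2l13 had 12779 counts over all libraries and Bid 7631, and without strand information some of the reads may be shared.

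The effector genes had negative values that did not pass. Bax had 52.3, 51.2 and 57.4 CPM in KANSL1-deficient libraries and 54.0, 85.8 and 70.2 CPM in control libraries. Control replicate 1 was within the KANSL1-deficient range, and the other control libraries were above it. The log2 fold change of Bax was -0.38 ± 0.18 (SE; edgeR adjusted p = 0.225), and -0.23 without control replicate 2. Bak1 had 5.12, 4.81 and 7.51 CPM against 9.29, 11.9 and 6.60 CPM, from 102 to 150 counts a library against 150 to 270. KANSL1-deficient replicate 3 was above control replicate 3. Its log2 fold change was -0.67 ± 0.32 (SE), the widest error of the set (edgeR adjusted p = 0.245). In mice, either effector is sufficient for most thymocyte death.

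**Figure D3:**
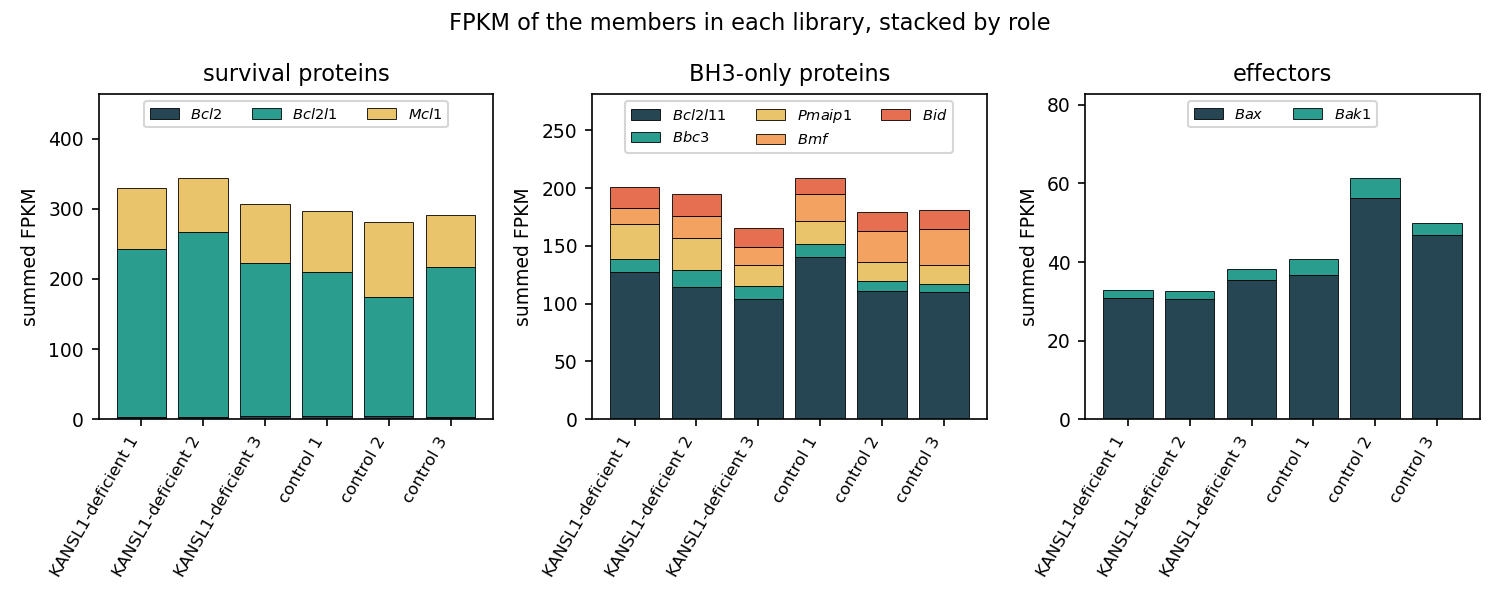
Bars are FPKM of the members stacked within each library, with a panel for survival, BH3-only and effector genes and the KANSL1-deficient libraries on the left of each panel. Survival genes sum to between 306 and 344 FPKM in KANSL1-deficient libraries and between 281.5 and 296 FPKM in control libraries, and effectors to between 32.6 and 38.3 against between 40.7 and 61.4 FPKM. FPKM are scaled by library totals, and on the TMM scale the effector sums of the groups overlap.

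Summed by role and given as a description with no test, survival genes reached 330, 344 and 306 FPKM in KANSL1-deficient libraries and 296, 281.5 and 292 FPKM in control libraries. BH3-only genes reached 201, 195 and 166 FPKM against 209, 179 and 181 FPKM, which overlapped. Effectors reached 32.8, 32.6 and 38.3 FPKM against 40.7, 61.4 and 49.9 FPKM. These FPKM are scaled by library totals and not by TMM, and the separation of the effector sums depended on that. In TMM-scaled CPM per kb, the effector sum of KANSL1-deficient replicate 3 was above that of control replicate 1, so the groups overlapped. Ratios within a library are unchanged by scaling with 1 factor per library, as TMM and library totals do, but cyclic loess moves genes by unequal amounts: it gave log2 fold changes of 0.11 for Bcl2l1, -0.23 for Bcl2l11 and -0.68 for Bmf. Survival over BH3-only FPKM was 1.64, 1.76 and 1.85 in KANSL1-deficient libraries and 1.42, 1.57 and 1.61 in control libraries, so the groups were separated by a narrow gap. Bcl2l1 over Bcl2l11 was 1.87, 2.30 and 2.09 against 1.46, 1.54 and 1.94, which overlapped. Bcl2l1 supplied between 71.2% and 76.7% of the survival FPKM in KANSL1-deficient libraries and between 60.4% and 73.5% in control libraries, and Bcl2 at most 1.5% and 1.54%.

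Bcl2l11 held most of the BH3-only transcripts in both groups; the shares below are a description with no test. Bcl2l11 gave between 58.8% and 63.6% of BH3-only FPKM in KANSL1-deficient libraries and between 60.9% and 67.3% in control libraries. Bmf gave 6.87%, 9.84% and 9.39% against 11.2%, 15.1% and 16.8%. Pmaip1 gave 15.2%, 14% and 11.3% against 9.62%, 9.38% and 9.04%, and Bbc3 5.44%, 7.44% and 6.64% against 5.09%, 5.0% and 3.85%. The shares of Bmf, Pmaip1 and Bbc3 did not overlap between the groups, while those of Bcl2l11 did, as did those of Bid, at between 8.92% and 9.9% against between 6.74% and 9.32%. CPM values of single genes did not overlap for 28.5% of all genes. That is an unlike measure, because the shares depend on each other within a library, and no such background was computed for shares or ratios. The ratio of Bbc3 to Bmf was 0.791, 0.756 and 0.707 against 0.454, 0.331 and 0.229, and that of Bcl2l1 to Bmf was 17.3, 13.7 and 14 against 8.77, 6.29 and 7.03. Both ratios were higher in every KANSL1-deficient library, and were not tested because the members had been chosen with results known.

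**Figure D4:**
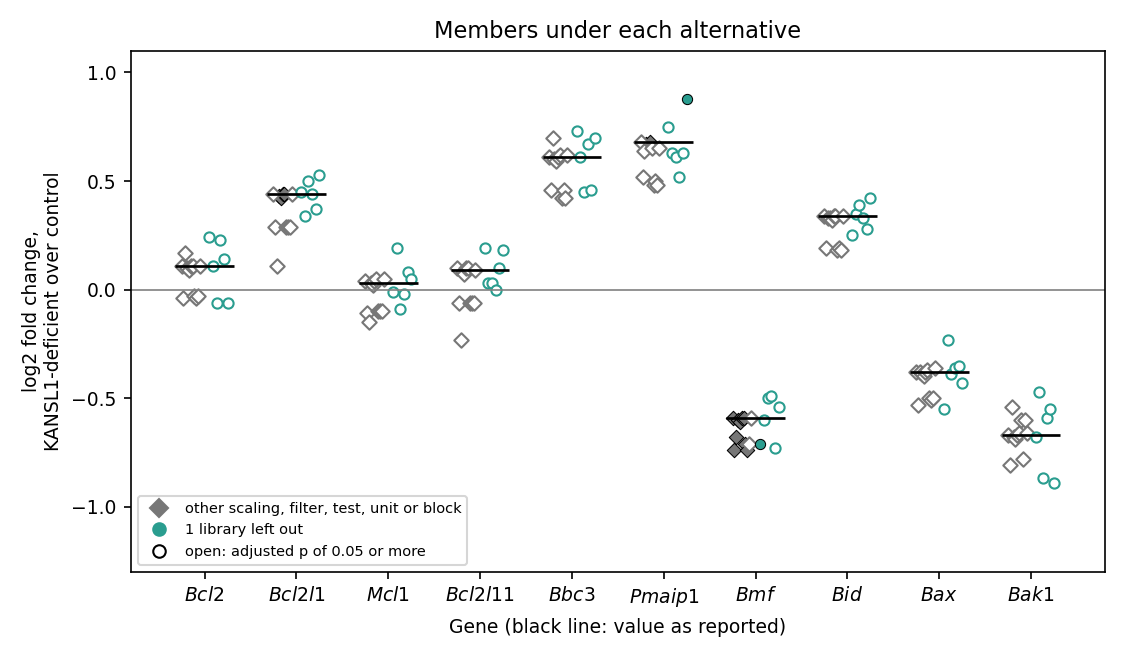
Each point is the log2 fold change of a member, KANSL1-deficient over control, under 1 alternative; diamonds change the scaling, filter, test, unit or block, circles leave out 1 library, filled points passed an adjusted p of 0.05 and the black line is the reported value. Bmf lies between -0.74 and -0.49 and passes in 10 of 17 alternatives, Bcl2l1 and Pmaip1 pass in 4 of 17 each, and Bcl2, Mcl1 and Bcl2l11 lie on both sides of 0.

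Other BCL2 family genes were mostly scarce in these cells. Of 12 further genes with a row in the table, 7 were tested and 0 passed with edgeR or limma-voom; DESeq2 gave no adjusted p for Bcl2a1d, Bad and Bcl2l14 and called 0 of the other 4. With edgeR, 0 had an unadjusted p under 0.05. Bcl2l13, a divergent member of the mitochondrial membrane, was the most abundant, at 103 and 97.7 CPM on average in KANSL1-deficient and control cells. Bcl2l2, which encodes the survival protein BCL-w, had 8, 16 and 53 counts in KANSL1-deficient libraries and 56, 103 and 56 counts in control libraries (log2 fold change -1.35 ± 0.65, SE; edgeR adjusted p = 0.246). Bik and Bcl2l12 averaged 3.63 and 3.33 CPM in KANSL1-deficient cells and 3.10 and 3.91 CPM in control cells. Bcl2a1d, Bad and Bcl2l14 averaged between 0.552 and 1.1 CPM in KANSL1-deficient cells and between 0.468 and 1.22 CPM in control cells. Bok, the third effector, Hrk, Bcl2l10, Bcl2l15 and Bcl2a1b had at most 19 counts in any library and were not tested. The Bcl2a1 genes are near-identical copies whose reads can be shared.

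Downstream of the mitochondrion, Apaf1 of the apoptosome rose and Dffa, which acts on the DNase that caspases release, fell. Of 16 tested genes of the apoptosome and caspase list, 2 rose (3.85% of all tested genes did) and 1 fell (2.91% did), and the median was -0.01 (log2 fold change). Apaf1, the scaffold that cytochrome c assembles, rose to 70.2, 73.4 and 68.8 CPM in KANSL1-deficient libraries, against 40.9, 39.6 and 47.5 CPM in control libraries (log2 fold change 0.73 ± 0.15, SE; edgeR adjusted p = 0.0155). The values of Apaf1 within a group were close together and the groups were far apart. Dffa, which encodes the inhibitor of the caspase-activated DNase, fell to 52.4, 49.5 and 52.8 CPM, against 76.9, 66.1 and 82.2 CPM (-0.54 ± 0.15; edgeR adjusted p = 0.0469). Casp9, the caspase that APAF1 activates, had 7.82, 9.47 and 7.21 CPM against 13.2, 13.5 and 17.3 CPM and did not pass (-0.84; edgeR adjusted p = 0.0617). Apaf1 lost the threshold when control replicate 2 or KANSL1-deficient replicate 1 or 2 was left out, with an edgeR adjusted p up to 0.0772. Dffa did not pass in any of the 6 fits that left out 1 library (edgeR adjusted p from 0.0592 to 0.17).

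In the death receptor list, 3 of 11 genes rose and 1 fell, beside 3.85% and 2.91% of all tested genes, and the median was -0.10 (log2 fold change). Ripk3, the kinase of necroptosis, fell to 46.7, 47.5 and 45.7 CPM in KANSL1-deficient libraries, against 79.1, 88.9 and 100.1 CPM in control libraries (-0.94 ± 0.15, SE; edgeR adjusted p = 0.00545), and it passed without any 1 library. The receptor genes Fas (log2 fold change 0.59) and Tnfrsf1b (0.55) rose, as did Cflar (0.50), which encodes the caspase-8 inhibitor c-FLIP. Casp8, whose product cuts BID, was 0.45 higher on the log2 scale and missed the threshold (edgeR adjusted p = 0.0507). Fas passed only without KANSL1-deficient replicate 3, and Tnfrsf1b and Cflar only without control replicate 1. Without another library the edgeR adjusted p reached 0.169 for Fas, 0.145 for Tnfrsf1b and 0.187 for Cflar. In the same order, all 3 calls were lost with library totals (adjusted p = 0.0833, 0.089 and 0.142) and after cyclic loess (0.0602, 0.0724 and 0.104).

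Of 22 tested transcription factors known to act on BCL2 family genes, 4 rose and 0 fell, where 3.85% of all tested genes rose and 2.91% fell, and the median was 0.14 (log2 fold change). Those that rose included Myc (log2 fold change 0.87), a regulator of growth that can also prime cells for death. Myc had 51.5, 41.4 and 40.9 CPM in KANSL1-deficient libraries and 19.3, 30.9 and 23.2 CPM in control libraries, with no overlap. Ets1 (0.48) and Ikzf1 (0.43), which encode regulators of lymphocyte development, also rose. Foxo1, an activator of Bcl2l11 in lymphocytes, differed by -0.38 on the log2 scale and missed the threshold (edgeR adjusted p = 0.261). Myc passed only without control replicate 2, Ets1 only without control replicate 3, and Ikzf1 in no fit that left out a library; their highest edgeR adjusted p was 0.13, 0.137 and 0.133. Ets1 and Ikzf1 also lost the threshold with library totals (adjusted p = 0.1 and 0.118) and after cyclic loess, where their log2 fold changes were 0.05 and 0.12 (adjusted p = 0.827 and 0.541).

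Neither the genes that handle BCL2 family proteins nor those of survival and death signals held a member past the edgeR threshold. Among the 19 handling genes the smallest p belonged to Trim17, a ubiquitin ligase of MCL1, and Dynll1, the dynein light chain that tethers BIM (log2 fold changes 1.01 and 0.49; edgeR adjusted p = 0.148 and 0.163). Of the 19, 4 had an unadjusted p under 0.05, all with higher values, as did 11.7% of all genes, and DESeq2 and limma-voom called 0. Among the 13 tested signal genes it belonged to Pik3cd and Jak1 (0.54 and 0.39; edgeR adjusted p = 0.054 and 0.0562); 5 had an unadjusted p under 0.05, all with higher values (11.7% of all genes). DESeq2 called 3 of the 13 higher (8.60% of the genes it adjusted) and limma-voom 2 (4.65% of genes). Over the 6 lists beyond the members, with 7, 16, 11, 19, 22 and 13 tested genes, 9 genes rose and 2 fell. Of all tested genes, 3.85% rose and 2.91% fell. The number of listed genes that rose was 0 when KANSL1-deficient replicate 1 or 2 was left out, 1 when control replicate 2 was, and 4 or 5 for the other libraries. Calls over all genes went from 1038 to 283 and 305 without KANSL1-deficient replicates 1 and 2, and to 339 without control replicate 2. After library totals 4 listed genes rose and 4 fell.

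**Figure D5:**
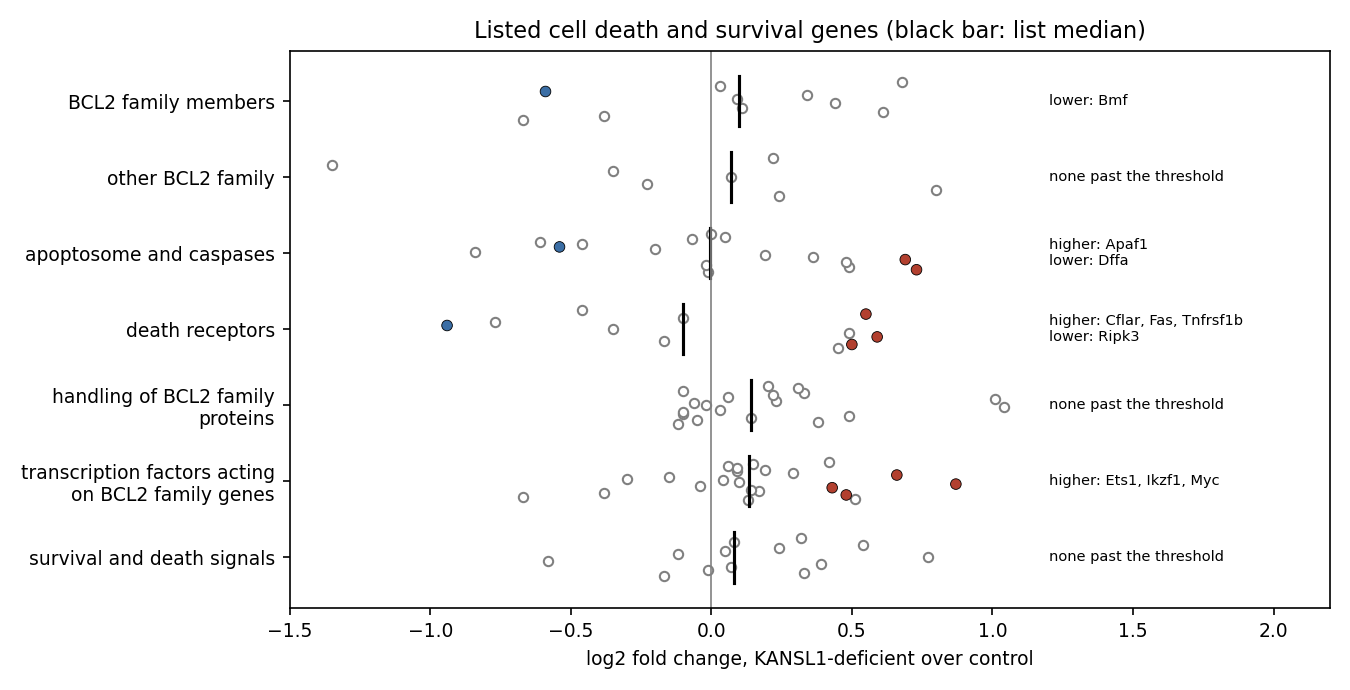
Each point is the log2 fold change of a tested gene, KANSL1-deficient over control, in 1 of 7 gene lists; filled points passed the edgeR threshold, red higher and blue lower, with names at the right for the genes reported here, and the black bar is the list's median. Medians lie between -0.10 for death receptors and 0.14 for transcription factors and for the handling of BCL2 family proteins.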

How the data were processed

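RNA-seq libraries of 3 KANSL1-deficient and 3 control mice were grouped by the sample titles. STAR, featureCounts and DESeq2 with GRCm39 were used, per the submitters' processing notes, which name no versions here. The authors deposited raw counts per gene, FPKM for the same genes, and a comparison with a mean normalized signal, a linear fold (ratio), its log2 value and p-values. Poly(A) RNA was selected, per the labels' protocols; no source used here says if reads were counted by strand.

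Counts were tested with edgeR 4.0.16 in R 4.3.3 (quasi-likelihood, robust, TMM, minimum count 10, minimum total 15, Benjamini-Hochberg at 0.05), with limma 3.58.1 and DESeq2 1.42.0 as alternatives. Standard errors are the log2 fold change over the root of F. No library was left out, no 2 libraries agreed within counting noise, and p-values measure the spread between these mice. The test was checked on simulated counts. FPKM alternatives used log2 of FPKM plus 1 or 0.1. Named genes were Kansl1, the members, other BCL2 family genes, up to 6 called genes per list (else the 2 of smallest p) and, for a called member, the 3 most similar genes; Trp53, Foxo1, Casp8, Casp9 and the cell type markers quoted singly were chosen after their values were seen, as were the 10 genes of dividing cells. The members and lists were chosen with earlier results of these data known. Some genes are not reported here by name; counts and medians over a list include them.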

Additional observations from a re-analysis of the deposited data

How the results depend on the processing

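The number of changed genes was 1038, and 1729 with no filter, 2040 with DESeq2, 1 with log2(FPKM + 1) and no filter, 406 with the replicate block, and 283 to 811 with 1 library left out. Members called higher were 2 with no filter, with a filter of 5 CPM in 3 libraries or with DESeq2, 1 with limma-voom, and 0 to 1 with a library left out. Members called lower were 0 with log2(FPKM + 1) and no filter and 0 with the replicate block, and 0 to 1 with a library left out. Listed genes that rose were 4 with library totals, 4 with cyclic loess, 16 with the 5 CPM filter, 16 with DESeq2, 1 with log2(FPKM + 1), 1 with log2(FPKM + 0.1), 0 with log2(FPKM + 1) and no filter, 0 with the replicate block and 0 to 5 with a library left out. Listed genes that fell were 4 with library totals, 4 with DESeq2, 0 with log2(FPKM + 1) and no filter, 1 with the replicate block and 1 to 2 with a library left out. The cause was not tested.

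Of 170 alternative values of the 10 members, 19 turned sign, all of Bcl2, Mcl1 or Bcl2l11. With library totals, log2(FPKM + 1), log2(FPKM + 0.1) and log2(FPKM + 1) without a filter, Bcl2 was -0.04, -0.03, -0.04 and -0.03, Mcl1 was -0.11, -0.10, -0.10 and -0.10, and Bcl2l11 was -0.06 in each. After cyclic loess Mcl1 was -0.15 and Bcl2l11 -0.23. With a library left out, Bcl2 lay between -0.06 and 0.24, Mcl1 between -0.09 and 0.19 and Bcl2l11 between 0.00 and 0.19. Among other family genes, Bcl2l13 was -0.08, -0.07, -0.08 and -0.07 in those 4 settings and -0.01 after cyclic loess, where Bcl2l12 was 0.01; with a library left out Bcl2l13 lay between -0.03 and 0.20, Bcl2l12 between -0.51 and 0.35, Bik between -0.07 and 0.45 and Bcl2l14 between -2.31 and 0.85.

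The ratio of KANSL1-deficient to control summed levels was 1.13 for survival genes, 0.987 for BH3-only genes and 0.683 for effectors in FPKM, and 1.25, 1.1 and 0.755 in TMM-scaled CPM per kb; with a library left out the effector ratio lay between 0.622 and 0.764, the second without control replicate 2. The order of members was the same with TPM.

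Equal replicate numbers were not said to mark a shared litter or day, and whether the mice were paired is not known. Deviations of libraries with equal numbers had correlations of -0.05, -0.02 and -0.10, which cannot settle this. The replicate block was therefore an alternative only, and under it Bmf had an edgeR adjusted p of 0.0877.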
